A study of Mus musculus with 4 samples.

Results

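Follicle-stimulating hormone (FSH) and testosterone are the main hormones that act on Sertoli cells, and 6 genes were followed here as a readout of that response in the young mouse testis: the FSH receptor gene Fshr, the transferrin gene Trf, the X-linked homeobox genes Rhox5 and Rhox8, the protease inhibitor gene Eppin and the dopamine receptor gene Drd4. They were chosen by symbol from 31017 gene symbols in the deposited matrices. All 6 were found. All were measured in 4 single-cell RNA sequencing libraries of testis, 1 library per group. Per the labels, every group came from C57BL/6 mice carrying an Acr-Gfp transgene, named for the acrosin gene of germ cells. The uncultured groups were testes at 9 and 14 days postpartum (dpp). The cultured groups were testes taken at 7 dpp, cut into fragments, laid on agarose gel and kept for 2 or 7 days in α-MEM plus AlbuMAX, covered by a ceiling chip of PDMS. They are called the short culture (2 days) and the long culture (7 days). The age at the start plus the days in culture matches 9 dpp for the short culture and 14 dpp for the long culture. These make the short-culture pair and the long-culture pair. The labels do not say how many animals were pooled.

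Sertoli cells line the seminiferous tubule and nurse the germ cells. FSH from the pituitary binds a Gs-coupled receptor on their surface and raises cyclic AMP, which activates protein kinase A. Testosterone from the Leydig cells of the interstitium enters Sertoli cells and changes transcription there through androgen response elements in DNA.

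The libraries held 34491701 to 60829941 unique molecular identifiers (UMIs), each standing for 1 captured RNA molecule, and 6877 (short culture), 4816 (long culture), 5150 (9 dpp) and 6195 (14 dpp) cells were kept. Cells were classed by the UMIs of fixed marker genes, and a class is called X-like. Sertoli-like cells numbered 1209 in the short culture, 538 in the long culture, 884 at 9 dpp and 977 at 14 dpp. All 12 Sertoli markers, Sox9, Wt1 and Dhh among them, were detected in these cells in every library. The marker Amh, anti-Müllerian hormone, stood at 754 CPM at 9 dpp, 166 CPM at 14 dpp, 138 CPM in the long culture and 34.0 CPM in the short culture, where CPM is a gene's UMIs per 1000000 UMIs of the class. Of the 12 markers 9, Amh included, were lower in the short culture than at 9 dpp and 3 were higher, Sox9 at 513 against 374 CPM, Wt1 at 548 against 425 CPM and Cldn11 at 1740.3 against 964 CPM. The Sertoli-like cells of the short culture were shallow, with a median of 3219 UMIs per cell against 9262.5 in the long culture, 13993 at 9 dpp and 10032 at 14 dpp. Joint clustering placed most cultured Sertoli-like cells in other clusters than the uncultured ones. Clusters 9 and 16 held 715 and 490 of the 1209 cells of the short culture, cluster 9 held 499 of those in the long culture, cluster 12 held 858 of those at 9 dpp, and clusters 15 and 18 held 739 and 229 of those at 14 dpp. RNA of germ markers was present too. All 10 germ markers were detected in Sertoli-like cells of every library, and together they reached 255, 404, 317 and 1557 CPM in the short culture, the long culture, 9 dpp and 14 dpp. The 12 stromal or myoid markers, none at 0, summed to 227 CPM in the short culture and 75.4 to 93.9 CPM in the others. The part of depth, germ RNA and stromal RNA in the results was not tested. Across libraries, 323 of 24851 barcodes occurred more than once. With 1 library per group no test between groups was possible, culture and library cannot be told apart, and all intervals are exact 95% intervals for counting error only. Where a count was 0, the limit given in place of an interval is 3 counts of the total.

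**Figure D1:**
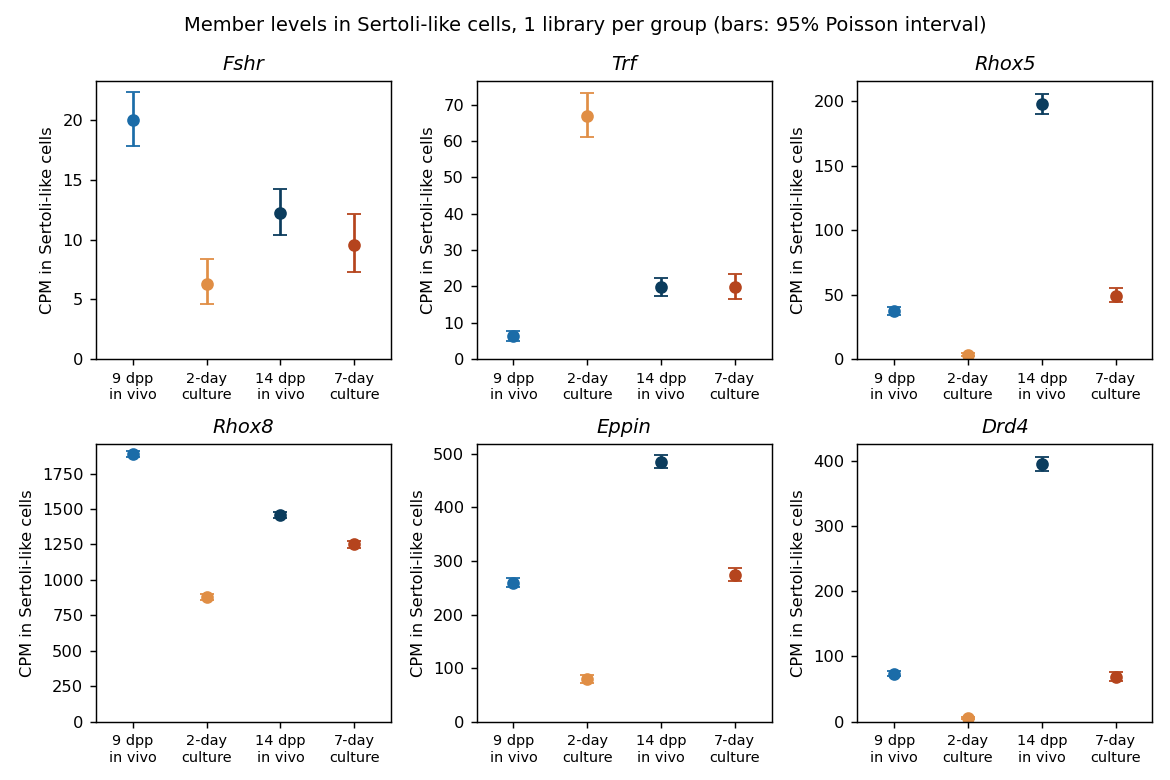
Level of each gene in Sertoli-like cells (y axis, CPM from 0) in the 4 libraries (x axis), with each in vivo library next to the culture of the same nominal age. Points are values of 1 library and bars are 95% Poisson intervals. Rhox5, Eppin and Drd4 are lowest in the short culture and highest at 14 dpp, while Trf is highest in the short culture.

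Fshr, whose product is the receptor for FSH, was at its highest in the uncultured testis at 9 dpp. It stood at 20.02 CPM (303 UMIs, interval 17.8 to 22.4) at 9 dpp and 12.2 CPM (159 UMIs, 10.4 to 14.3) at 14 dpp. In culture it stood at 6.29 CPM (45 UMIs, 4.59 to 8.42) after 2 days and 9.52 CPM (63 UMIs, 7.32 to 12.2) after 7 days. The order from low to high was short culture, long culture, 14 dpp and 9 dpp. The intervals of neighbours overlapped except between 14 dpp and 9 dpp. The level in the short culture was 3.18-fold lower than at 9 dpp (interval 2.32 to 4.45). The log2 ratio of this pair was -1.53, and -2.03 in cells with the lower share of germ markers. With 10 in place of 1 added to CPM it was -0.88, no longer past 2-fold. Between the long culture and 14 dpp it was 1.28-fold lower in culture, with an interval of 0.953 to 1.75 that includes no difference. In vivo the level was 1.64-fold lower at 14 than at 9 dpp (1.35 to 2.00).

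Few Fshr UMIs lay outside Sertoli-like cells. These cells held 95.7%, 94.0%, 99.0% and 90.9% of the gene's UMIs in the short culture, the long culture, 9 dpp and 14 dpp. Germ-like cells had 1, 1, 2 and 5 Fshr UMIs in the same order. Leydig-like, endothelial-like, macrophage-like and pericyte-like cells had 0 in every library. When each cell was thinned to 3000 UMIs, 6.16% of Sertoli-like cells had an Fshr UMI at 9 dpp, 3.07% at 14 dpp, 2.84% in the long culture and 2.08% in the short culture. Without thinning the shares were 26.9%, 14.5%, 10.2% and 3.23%. At 3000 UMIs per cell 0 of 2416 germ-like cells had an Fshr UMI at 9 dpp, which allows a share of up to 0.124% at that depth. Unthinned, 2 of 2491 had one.

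The 250 bases before the Fshr start are shown because they carry the E-box, a binding motif of the USF transcription factors that drive this promoter. The gene lies on chromosome 17 at 88984952 to 89200675 of GRCm38, minus strand, and the window is chr17:89200676-89200925 in RefSeq's GRCm38.p6, read 5′ to 3′ on the minus strand. Capitals mark CACGTG, which reads the same on both strands and lies 61 to 56 bases before the start.

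Fshr promoter: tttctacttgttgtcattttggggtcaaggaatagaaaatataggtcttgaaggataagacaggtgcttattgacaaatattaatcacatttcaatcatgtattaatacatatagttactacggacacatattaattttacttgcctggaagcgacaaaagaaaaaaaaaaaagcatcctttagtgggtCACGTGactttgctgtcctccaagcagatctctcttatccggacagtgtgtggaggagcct

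CACGTG occurs in 6.02% of 32851 such windows of 250 bases. A match is a description of the letters and not a bound site. A gene counts as past 2-fold when its log2 ratio of CPM + 1 is at least 1 or at most -1. In the short-culture pair 6.57% of 12276 genes were past it in the higher direction and 6.21% in the lower, and from 9 to 14 dpp 5.86% and 7.68%. Of 7 known regulators of Fshr on a list, all measured, Usf1 was the 1 past 2-fold in the short-culture pair. It stood at 3.92 CPM in the short culture and 10.8 CPM at 9 dpp, against 5.29 CPM in the long culture and 6.15 CPM at 14 dpp. Gata4, a zinc finger factor of Sertoli cells, was the 1 past it between the ages, at 153 CPM at 9 dpp and 60.9 CPM at 14 dpp. It stood at 140 and 114 CPM in the short and the long culture. The median log2 ratio of the 7 genes was -0.40 in the short-culture pair and 0.24 in the long-culture pair, where all genes had -0.11 and -0.02.

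Most genes of the machinery below the receptor were within 2-fold in each pair, as were most of all genes. All 18 listed genes of FSH receptor and cAMP signalling had enough UMIs. In the short culture against 9 dpp 0 were higher and 3 lower past 2-fold, beside 6.57% and 6.21% of all genes. Fshr was 1 of the 3. The others lower were Akap12, a scaffold for protein kinase A, at 83.8 against 193 CPM, and Pde4b, a phosphodiesterase that breaks down cyclic AMP, at 6.29 against 19.4 CPM. In the long culture against 14 dpp, 1 gene was higher and 3 were lower, beside 9.75% and 8.59% of all genes. The adenylyl cyclase gene Adcy6 was higher, at 5.59 against 0.769 CPM (37 and 10 UMIs). Pde4b was lower at 3.33 against 30.9 CPM and Pde4d, a related phosphodiesterase, at 12.5 against 36.8 CPM. Arrb1, a β-arrestin that uncouples such receptors, was lower at 0.907 against 3.54 CPM (6 and 46 UMIs). Gnas, the Gs α subunit, ranged only from 1094 to 1374 CPM and Prkaca, a catalytic subunit of protein kinase A, from 86.7 to 117 CPM over the 4 libraries. The median log2 ratio of the list, Fshr included, was -0.12 in the short-culture pair and -0.04 in the long-culture pair. For the 17 genes other than Fshr it was -0.10 and 0.05.

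The products of the FSH response went in several directions. Of 11 listed genes 9 had enough UMIs. In the short culture 1 was higher, Trf, and 2 were lower than at 9 dpp. In the long culture 1 was higher and 2 were lower than at 14 dpp. Inha, the inhibin α subunit that feeds back on pituitary FSH, was lower in both pairs, at 621 against 1821 CPM and at 977 against 2211 CPM. Per1, a clock gene induced by cyclic AMP, was lower in both at 13.8 against 31.1 CPM and at 19.3 against 44.0 CPM. Nr4a1, an immediate early nuclear receptor, was higher in the long culture at 148 against 28.0 CPM. Shbg, the androgen binding protein, stayed within 2-fold at 139 and 193 CPM in the short-culture pair and at 202 and 356 CPM in the long-culture pair. Cyp19a1, aromatase, had 0 UMIs in 3 libraries and 2 UMIs at 14 dpp. FSH itself is made in the pituitary, and its β subunit gene Fshb had 0 UMIs in Sertoli-like cells of every library.

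Trf encodes transferrin, the iron carrier that Sertoli cells secrete to supply germ cells behind the blood-testis barrier. It was the 1 gene of the 6 that was higher in the short culture than at 9 dpp. In Sertoli-like cells it stood at 66.8 CPM (478 UMIs, 61.0 to 73.1) in the short culture and 6.28 CPM (95 UMIs, 5.08 to 7.67) at 9 dpp. It stood at 19.8 CPM in both the long culture (131 UMIs, 16.6 to 23.5) and at 14 dpp (257 UMIs, 17.4 to 22.3). The short culture lay 10.6-fold above 9 dpp (8.53 to 13.4). The long culture and 14 dpp had a ratio of 1.002 (0.805 to 1.24), and the log2 ratio of 0.00 became -0.39 in cells with the lower share of germ markers. From 9 to 14 dpp the level was 3.15-fold higher (2.48 to 4.03; log2 ratio 1.51, and 0.87 with 10 added to CPM, no longer past 2-fold), and from 2 to 7 days of culture 3.38-fold lower (2.78 to 4.13). At 3000 UMIs per cell, 14.9% of Sertoli-like cells in the short culture had a Trf UMI, against 7.71% in the long culture, 4.44% at 14 dpp and 2.32% at 9 dpp. Unthinned shares were 19.7%, 17.1%, 19.9% and 9.39%. The interval of the thinned share at 9 dpp, 1.42 to 3.56, overlapped that of germ-like cells in the same library, 1.82% (1.33 to 2.44). It lay above that of stromal- or myoid-like cells, 0.146% (0.0177 to 0.528). The level in the short culture was 70.8 CPM in cells under 5000 UMIs and 65.9 CPM in deeper cells. Trf lies on chromosome 9 at 103204001 to 103230444, minus strand, and shares exons with Gm20425 on the same strand. Gm20425 had 0 UMIs in every library, and how reads in shared exons were counted is not given in the sources used here.

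Iron genes around transferrin also differed. Of 10 genes on the iron list 8 had enough UMIs, and 4, Trf included, were higher and 1 lower in the short culture than at 9 dpp, against 3 higher and 2 lower in the long-culture pair. Fth1, the ferritin heavy chain that stores iron, stood at 3891 against 1110 CPM in the short-culture pair. Steap3, a ferrireductase of endosomes, stood at 16.5 against 4.49 CPM in the short-culture pair and 6.20 against 1.23 CPM in the long-culture pair. Tfr2, the second transferrin receptor, had few UMIs. It stood at 3.496 against 1.06 CPM (25 and 16 UMIs) and then, in the other direction, at 0.756 against 3.23 CPM (5 and 42 UMIs). In the long-culture pair Ftl1, the ferritin light chain, stood at 2540.2 against 981 CPM and Slc40a1, the iron exporter ferroportin, at 33.7 against 11.1 CPM. Tfrc, the main receptor that takes up transferrin, was the gene lower in both, at 7.83 against 30.6 CPM and 9.22 against 34.4 CPM. In germ-like cells Tfrc stood at 64.1 CPM in the short culture, 57.7 at 9 dpp, 53.8 in the long culture and 54.5 at 14 dpp. The median log2 ratio of the list, Trf included, was 0.99 in the short-culture pair and 0.42 in the long-culture pair. For the 7 genes other than Trf it was 0.84 and 0.83.

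Fkbp4, a co-chaperone of steroid hormone receptors, was past 2-fold between the ages in Sertoli-like cells, at 302 CPM at 9 dpp and 680.0 CPM at 14 dpp, with 246 and 369 CPM in the short and the long culture. The source of androgen lies outside Sertoli cells. In Leydig-like cells, of which there were 64 to 102 per library, the luteinizing hormone receptor gene Lhcgr stood at 25.0 CPM in the short culture, 107 CPM in the long culture, 139 CPM at 9 dpp and 91.6 CPM at 14 dpp. Cyp17a1, which makes androgens from progestins and is also a marker used to class these cells, stood at 63.5, 203, 4897 and 1721 CPM in the same order. Within Sertoli-like cells 6 of 9 androgen supply genes had enough UMIs, with 2 higher and 3 lower in the short-culture pair and 0 higher and 1 lower in the long-culture pair. Star, which carries cholesterol into mitochondria, and Cyp11a1, which cleaves its side chain, were the higher ones at 41.1 against 13.4 CPM and 18.7 against 2.51 CPM. Both are Leydig markers. Cyp17a1, another, was lower at 0.280 against 3.04 CPM (2 and 46 UMIs). Hsd17b3, which makes testosterone from androstenedione, was lower at 26.3 against 136 CPM. Srd5a1, a steroid reductase, was the 1 lower in the long-culture pair, at 2.12 against 10.5 CPM.

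Of the 4 androgen-responsive genes among the 6, Rhox5, Eppin and Drd4 shared a pattern: lowest in the short culture, intermediate at 9 dpp and in the long culture, and highest at 14 dpp. Rhox8 did not share it. Of the 12 Sertoli markers used for classing, Cst9, Cst12, Amhr2 and Defb19 were also lowest in the short culture and highest at 14 dpp. Defb19, a β-defensin gene, stood at 1392 CPM in the short culture, 2206 CPM in the long culture, 3294 CPM at 9 dpp and 8156 CPM at 14 dpp, and Cst12, a cystatin gene, at 2743, 2808, 3871 and 6381 CPM in the same order. All 4 were lower in the short culture than at 9 dpp, and with Fshr and Trf this made 5 lower and 1 higher past 2-fold among the 6, where 6.21% and 6.57% of all genes were. In the long culture against 14 dpp, 2 of the 6 were lower and 0 were higher, beside 8.59% and 9.75% of all genes. These comparisons share no library with each other.

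Rhox5 encodes a homeobox transcription factor whose Sertoli cell expression depends on androgen. It stood at 37.0 CPM (560 UMIs, 34.0 to 40.2) at 9 dpp and 198 CPM (2572 UMIs, 190.2 to 206) at 14 dpp. In culture it stood at 3.22 CPM (23 UMIs, 2.04 to 4.83) after 2 days and 49.1 CPM (325 UMIs, 43.9 to 54.8) after 7 days. No neighbouring intervals overlapped, so the long culture lay above 9 dpp and below 14 dpp. The level was 11.5-fold lower in the short culture, where 10 of the 23 UMIs came from 2 of 1209 cells, than at 9 dpp (7.59 to 18.3, an interval that takes each UMI as independent) and 4.03-fold lower in the long culture than at 14 dpp (3.59 to 4.53). Cells with the lower share of germ markers gave a log2 ratio of -2.49 in the long-culture pair, in place of -1.99. At 3000 UMIs per cell, 36.3% of Sertoli-like cells had a Rhox5 UMI at 14 dpp, 8.01% at 9 dpp, 12.2% in the long culture and 0.801% in the short culture. Unthinned shares were 60.5%, 30.4%, 27.7% and 1.16%. The share in the short culture (0.261 to 1.86) overlapped that of germ-like cells in the same library, 0.118% (0.0143 to 0.426), while the unthinned shares, 1.16% (0.634 to 1.94) and 0.0716% (0.00867 to 0.258), did not overlap.

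Rhox8, another homeobox gene of the same X-linked cluster, was the most even of the 4. It stood at 1886 CPM (1864 to 1908) at 9 dpp, 1457 CPM (1437 to 1478) at 14 dpp, 1249.8 CPM (1223 to 1277) in the long culture and 882 CPM (860.1 to 904) in the short culture. No intervals overlapped. The short culture was 2.14-fold lower than 9 dpp (2.08 to 2.20), the long culture 1.17-fold lower than 14 dpp (1.14 to 1.20), and 14 dpp 1.29-fold lower than 9 dpp (1.27 to 1.32). Thinned to 3000 UMIs, 98.6% of Sertoli-like cells at 9 dpp, 98.3% at 14 dpp, 94.3% in the long culture and 80.8% in the short culture had a Rhox8 UMI, against 1.42% to 5.01% of germ-like cells. Its unthinned shares in Sertoli-like cells were 99.5%, 99.0%, 96.3% and 81.7%.

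Eppin encodes a protease inhibitor with a WAP and a Kunitz domain, best known from the epididymis and the sperm surface. It stood at 259 CPM (3926 UMIs, 251 to 268) at 9 dpp and 485 CPM (6312 UMIs, 474 to 498) at 14 dpp. After 2 days of culture it stood at 79.6 CPM (569 UMIs, 73.2 to 86.4) and after 7 days at 274 CPM (1814 UMIs, 262 to 287). The intervals of 9 dpp and the long culture overlapped, and the other libraries stood apart. Eppin was 3.26-fold lower in the short culture than at 9 dpp (2.99 to 3.57) and 1.77-fold lower in the long culture than at 14 dpp (1.68 to 1.87). In cells with the lower share of germ markers the log2 ratio of the long-culture pair was -1.02, past 2-fold, in place of -0.82. The shares of cells with an Eppin UMI at 3000 UMIs were 48.3% at 9 dpp, 66.7% at 14 dpp, 17.8% in the short culture and 52.5% in the long culture, against 0.118% to 1.84% of germ-like cells. Unthinned they were 82.8%, 87.4%, 26.7% and 77.9%.

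Drd4 encodes a dopamine receptor coupled to Gi, which lowers cyclic AMP. It stood at 73.7 CPM (1116 UMIs, 69.5 to 78.2) at 9 dpp and 395 CPM (5133 UMIs, 384 to 406) at 14 dpp. The short culture had 5.73 CPM (41 UMIs, 4.11 to 7.78) and the long culture 69.1 CPM (457 UMIs, 62.9 to 75.7). The long culture and 9 dpp overlapped, and the others did not. The short culture was 12.9-fold lower than 9 dpp (9.42 to 18.0), and the long culture 5.71-fold lower than 14 dpp (5.19 to 6.30). Its log2 ratio in the long-culture pair was -3.06 in cells with the lower share of germ markers, in place of -2.50. With each cell given the same weight the log2 ratio of the short-culture pair was -2.70 in place of -3.47. Cells under 5000 UMIs held 11.1 CPM (6.19 to 18.2) and deeper cells 4.49 CPM (2.93 to 6.57) in the short culture. At 3000 UMIs per cell 62.9% of Sertoli-like cells at 14 dpp had a Drd4 UMI, 17.5% at 9 dpp, 17.6% in the long culture and 2.24% in the short culture. Unthinned shares were 86.0%, 51.7%, 40.0% and 3.14%. Germ-like cells at 3000 UMIs per cell had 1.37%, 0.869%, 0.222% and 0.708%. In the short culture the intervals of the 2.24% (1.23 to 3.74) and the 0.708% (0.367 to 1.23) overlapped at their ends. The unthinned shares there, 3.14% (2.23 to 4.29) in Sertoli-like and 1.36% (0.964 to 1.86) in germ-like cells, did not overlap.

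**Figure D2:**
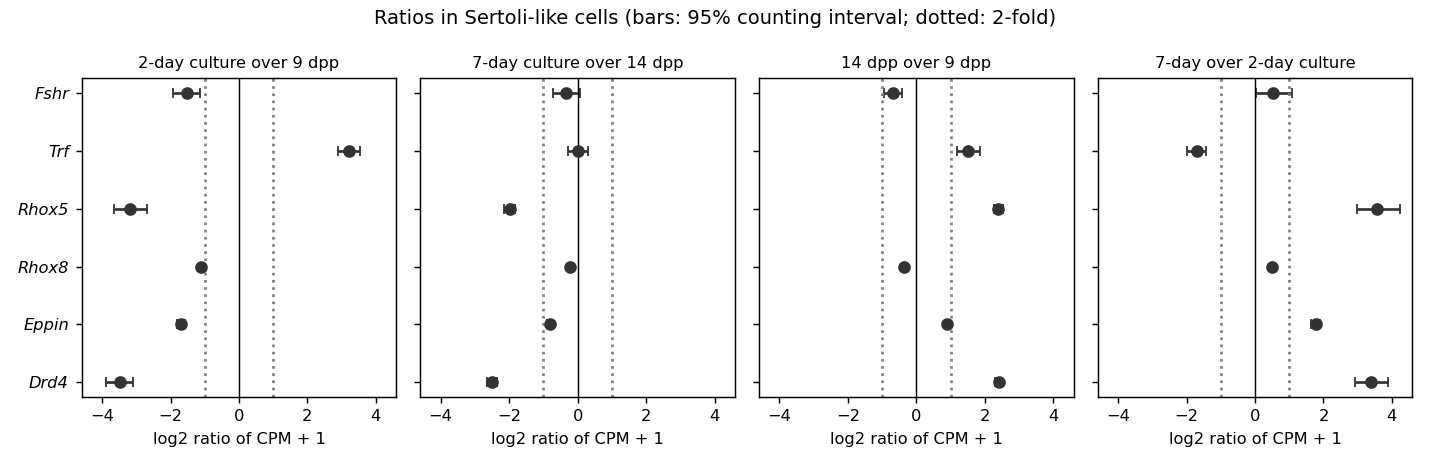
Log2 ratio of CPM + 1 in Sertoli-like cells (x axis) for each gene (y axis) in the 4 comparisons, 1 library against 1. Bars are 95% counting intervals and dotted lines mark 2-fold. In the first panel 5 genes lie left of the lower line and Trf lies right of the upper one, and Rhox5 and Drd4 are the genes beyond the line in all 4 panels.

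The promoter windows of Rhox5, Eppin and Drd4 are shown because these genes shared a pattern over the libraries. The motif sought was AGAACA or its reverse complement TGTTCT, the core of the androgen response element. CACGTG and the cAMP response element core TGACG or CGTCA were sought too. The table of RefSeq promoters on GRCm38.p6 used here matched 4 of the 6 genes, these and Fshr. Rhox5 lies on chromosome X at 37804842 to 37808876, plus strand, in GENCODE M21, and its RefSeq start lies 50234 bases before that gene start, so the window chrX:37754358-37754607 belongs to a more distant start. The sequence beside the nearer gene start was not analysed here, and the levels of Rhox5 above cannot be assigned to either start. Capitals mark TGTTCT, 225 to 220 bases before that start. Eppin lies on chromosome 2 at 164588343 to 164593594, minus strand, with the window chr2:164593572-164593821. Drd4 lies on chromosome 7 at 141292006 to 141296464, plus strand, with the window chr7:141291768-141292017. Rhox8 lies on chromosome X at 37874778 to 37878944, minus strand.

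Rhox5 promoter: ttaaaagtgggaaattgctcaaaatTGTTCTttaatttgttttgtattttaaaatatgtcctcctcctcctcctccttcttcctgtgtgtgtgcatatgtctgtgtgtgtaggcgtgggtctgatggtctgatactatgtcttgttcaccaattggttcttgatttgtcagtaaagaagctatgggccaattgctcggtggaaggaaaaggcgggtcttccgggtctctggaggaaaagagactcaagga

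Eppin promoter: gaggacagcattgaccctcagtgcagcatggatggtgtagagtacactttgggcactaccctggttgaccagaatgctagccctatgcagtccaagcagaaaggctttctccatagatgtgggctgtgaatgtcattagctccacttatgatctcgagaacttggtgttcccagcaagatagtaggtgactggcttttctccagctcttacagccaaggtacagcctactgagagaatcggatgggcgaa

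Drd4 promoter: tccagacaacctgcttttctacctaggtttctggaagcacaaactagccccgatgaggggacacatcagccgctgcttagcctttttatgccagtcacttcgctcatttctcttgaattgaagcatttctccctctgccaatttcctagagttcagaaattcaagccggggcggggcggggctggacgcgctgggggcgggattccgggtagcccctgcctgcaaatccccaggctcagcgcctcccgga

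The androgen element core occurs in 16.1% of all windows of 250 bases and the cAMP element core in 17.8%. Eppin and Drd4 hold none of the 3 motifs in these windows, which says only that these letters are not there.

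Other androgen-responsive genes of Sertoli cells were read from the same list of 8, all with enough UMIs and 4 of them not among the 6 genes. Of the 8, 1 was higher and 6 lower past 2-fold in the short culture, 0 and 5 in the long culture, and 4 and 0 at 14 against 9 dpp. The median log2 ratio was -1.43 in the short-culture pair, -1.75 in the long-culture pair and 1.64 between the ages, where all genes had -0.11, -0.02 and -0.10. These counts and medians include the 4 genes already described. Of the 4 others, 1 was higher and 2 were lower in the short-culture pair (median -0.77), 0 and 3 in the long-culture pair (-1.75) and 2 and 0 between the ages (1.87). Tsx, an X-linked testis gene, stood at 29.2 CPM at 9 dpp and 526 CPM at 14 dpp, against 5.87 CPM in the short culture and 16.3 CPM in the long culture. Tubb3, a β-tubulin gene, stood at 513 CPM at 9 dpp and 761 CPM at 14 dpp, against 226 CPM in both cultures. Cldn3, a tight junction claudin, had few UMIs, and stood at 0.330 CPM at 9 dpp, 10.998 CPM at 14 dpp, 1.82 CPM in the short culture and 2.57 CPM in the long culture. Germ marker RNA in Sertoli-like cells also stood highest at 14 dpp, at 1557 CPM, and its part in the values of Tsx and Cldn3 was not tested.

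**Figure D3:**
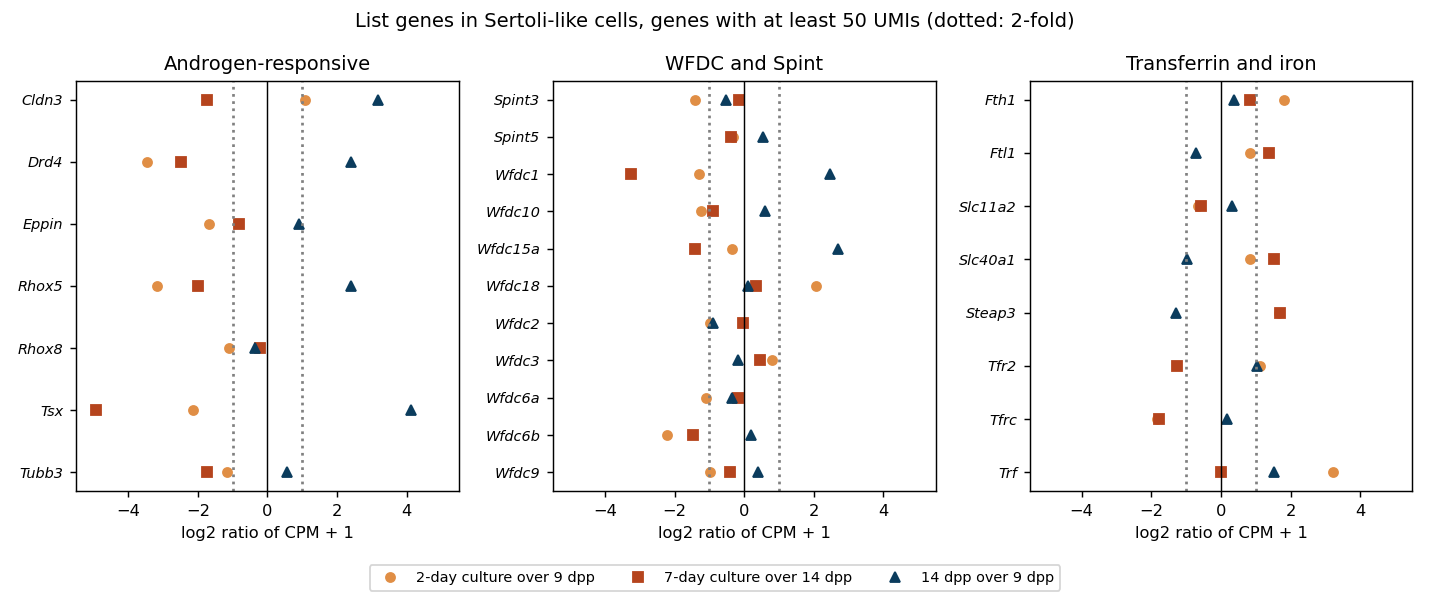
Log2 ratio of CPM + 1 in Sertoli-like cells (x axis) for genes of 3 lists (y axis), with circles for the short culture over 9 dpp, squares for the long culture over 14 dpp and triangles for 14 over 9 dpp. Dotted lines mark 2-fold, and each mark compares 1 library with 1. Tsx, Drd4, Rhox5 and Wfdc1 lie left of the lower line in both culture comparisons and right of the upper line for age.

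Relatives of the members were read from lists too. Of 34 Rhox genes 6 had enough UMIs in Sertoli-like cells, and besides Rhox5 and Rhox8 the named ones were low. Rhox13 stood at 22.5 CPM at 9 dpp, 49.8 CPM at 14 dpp, 13.3 CPM in the short culture and 19.3 CPM in the long culture. Rhox1 stood between 1.21 and 4.08 CPM and Rhox2a between 0.419 and 3.31 CPM. The Rhox genes lie in a cluster, and how reads shared between them were counted is not given in the sources used here. Of 5 dopamine receptor genes Drd4 was the one measured, and Drd1, Drd2, Drd3 and Drd5 had 0 UMIs in Sertoli-like cells of every library. Of 22 WFDC and Spint genes, relatives and neighbours of Eppin, 11 had enough UMIs. In the short-culture pair 1 was higher and 5 were lower, and in the long-culture pair 0 were higher and 3 were lower. Wfdc10 stood at 1370.1 CPM at 9 dpp, 2079 CPM at 14 dpp, 574 CPM in the short culture and 1126 CPM in the long culture. Wfdc1 stood at 93.6, 519.7, 37.8 and 53.5 CPM in that order. Wfdc18 went the other way in the short culture, at 40.8 CPM against 8.99 CPM at 9 dpp. Spint3 and Wfdc6a were lower there at 18.2 against 49.95 CPM and at 14.7 against 32.4 CPM. Wfdc6b was lower in both pairs, at 0.699 against 6.87 CPM (5 and 104 UMIs) and 2.27 against 8.08 CPM (15 and 105 UMIs). Wfdc15a was lower in the long-culture pair, at 7.41 against 21.3 CPM.

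Over time the cultured and uncultured testes can be set side by side, though each of these comparisons shares its libraries with those above. From 9 to 14 dpp 3 of the 6 genes were higher past 2-fold, where 5.86% of all genes were, Drd4 and Rhox5 by 5.35-fold each (5.02 to 5.72 and 4.88 to 5.87) and Trf as given above, and 0 were lower. Eppin was 1.87-fold higher (1.80 to 1.95). From 2 to 7 days of culture 3 were higher and 1 was lower, beside 2.66% and 3.88% of all genes. Rhox5 was 15.3-fold higher (10.0 to 24.4), Drd4 12.1-fold (8.74 to 17.0) and Eppin 3.45-fold (3.14 to 3.79). Fshr was 1.51-fold higher (1.02 to 2.27) and Rhox8 1.42-fold (1.37 to 1.46).

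The 6 genes differed in how far they were limited to Sertoli cells. The level in Sertoli-like cells over that in all other kept cells was 33.0-fold to 283-fold for Fshr, 34.3-fold to 61.5-fold for Eppin, 8.91-fold to 88.1-fold for Rhox5 and 38.2-fold to 143-fold for Rhox8 over the 4 libraries. The other cells include 113 to 235 unassigned cells per library. Against the other cells of a named class alone, a choice made after seeing the data, the ranges were 76.1-fold to 415-fold for Fshr, 40.96-fold to 79.0-fold for Eppin, 9.73-fold to 146-fold for Rhox5 and 87.3-fold to 245-fold for Rhox8. At 14 dpp this moved Fshr from 33.0-fold to 100.1-fold, with 5 in place of 16 UMIs in the other cells, Eppin from 34.3-fold to 62.5-fold, Rhox5 from 59.8-fold to 105-fold and Rhox8 from 38.2-fold to 87.3-fold. In the long culture it moved Fshr from 72.6-fold to 141-fold, Rhox5 from 88.1-fold to 146-fold and Rhox8 from 143-fold to 245-fold. For Drd4 the level over that in all other kept cells was 14.2-fold at 14 dpp (13.3 to 15.1), 3.41-fold at 9 dpp and 6.82-fold in the long culture. In the short culture Drd4 was lower in Sertoli-like cells than in the rest, with a ratio of 0.384 (0.271 to 0.531). Stromal- or myoid-like cells had 29.2 CPM of Drd4 there, 38.7 CPM in the long culture, 78.6 CPM at 9 dpp and 130.2 CPM at 14 dpp. They held 76.0% of the Drd4 UMIs of the short culture, 35.0% of the long culture, 35.9% at 9 dpp and 10.1% at 14 dpp. In these cells too the cultures were lower, by 2.69-fold in the short-culture pair (2.35 to 3.08) and 3.37-fold in the long-culture pair (2.92 to 3.90). Leydig-like cells had 18.4 CPM of Drd4 in the short culture, 1.54 CPM in the long culture, 62.3 CPM at 9 dpp and 51.8 CPM at 14 dpp.

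**Figure D4:**
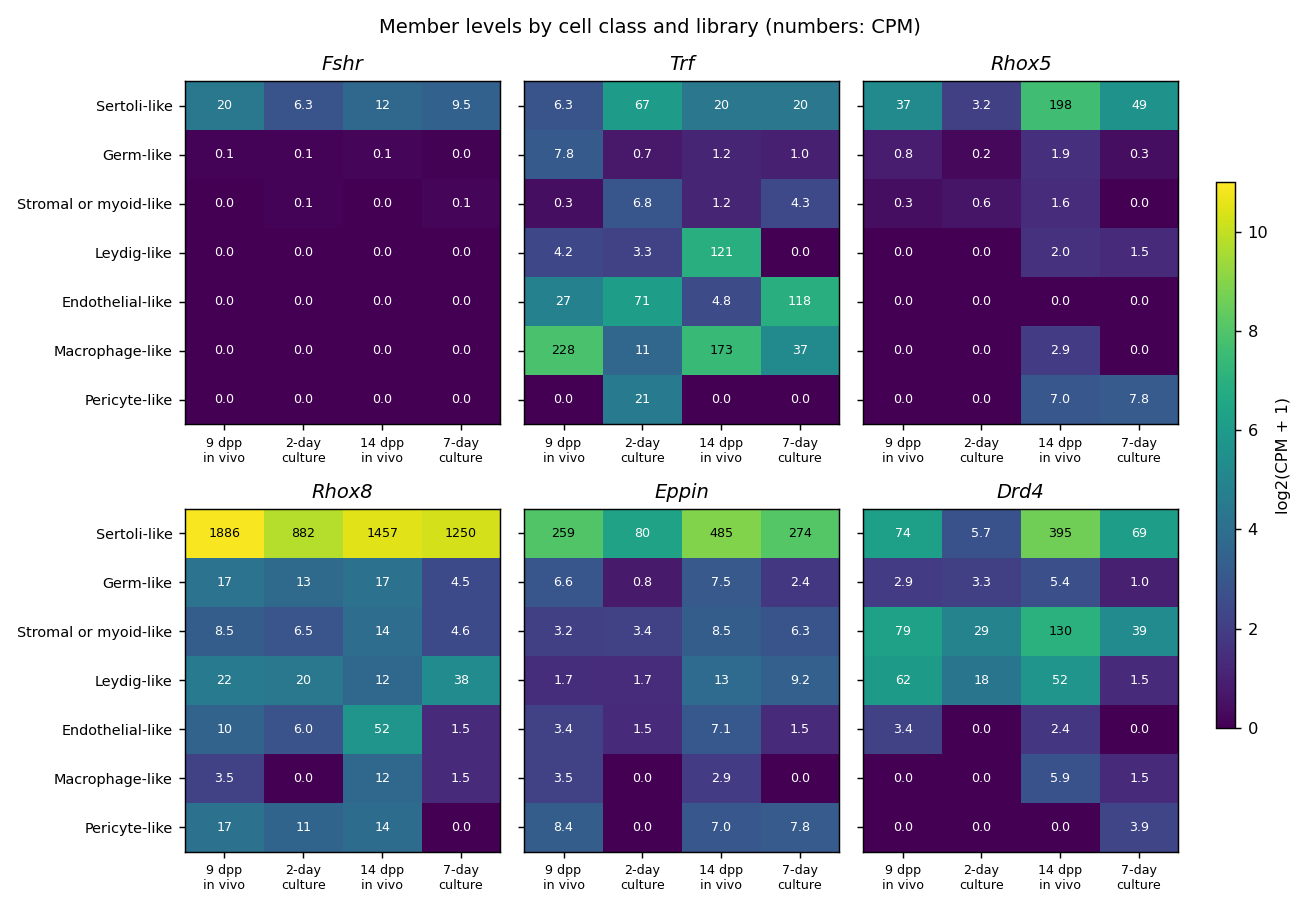
Level of each gene by cell class (y axis) and library (x axis). Colour is log2(CPM + 1) and the number in each square is CPM. Fshr, Rhox5, Rhox8 and Eppin stand out in the Sertoli-like row, Drd4 is also seen in stromal- or myoid-like and Leydig-like cells, and Trf is spread over several classes; the endothelial-like, macrophage-like and pericyte-like rows rest on 10 to 55 cells per library.

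Trf had the lowest such ratio of the 6 genes in the long culture and at both ages, and Drd4 had it in the short culture. The level of Trf in Sertoli-like cells over all other cells was 11.6-fold in the short culture (9.58 to 14.0), 3.90-fold in the long culture, 2.69-fold at 14 dpp and 0.838 at 9 dpp (0.659 to 1.06). Macrophage-like cells had 228 CPM at 9 dpp, 173 CPM at 14 dpp, 36.8 CPM in the long culture and 11.5 CPM in the short culture, from 10 to 48 cells per library. Endothelial-like cells had 27.3 CPM at 9 dpp and 4.76 CPM at 14 dpp, against 71.4 CPM in the short culture and 118 CPM in the long culture. Leydig-like cells reached 121 CPM at 14 dpp, where 78 of 182 UMIs came from 2 of 102 cells, and had 0 to 4.21 CPM in the other libraries. Stromal- or myoid-like cells had 6.79 CPM in the short culture against 0.323 CPM at 9 dpp, a 21.0-fold difference (6.92 to 104) that rests on 3 UMIs at 9 dpp, and 4.33 CPM in the long culture against 1.22 CPM at 14 dpp (3.54-fold, 1.45 to 10.4). Germ-like cells had 7.76 CPM at 9 dpp and 0.667 to 1.22 CPM in the others. At 9 dpp they held 56.7% of all Trf UMIs, 234 UMIs in 185 of 2491 cells.

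The number of the 6 genes seen in a cell depends on the share of cells with each gene. Rhox8 was seen in 80.8% to 98.6% of the cells, so some overlap is fixed in advance. The numbers below were not set against what the shares alone would give. At 14 dpp and 3000 UMIs per cell, 38.2% of 879 Sertoli-like cells had UMIs of 3 of the 6 genes and 19.3% of 4. At 9 dpp the shares were 15.6% and 1.51% of 861 cells, in the long culture 16.6% and 3.65% of 493 cells, and in the short culture 4.01% and 0% of 624 cells. That 0 allows a share of up to 0.481%. Cells of 1 library are not replicates, and these shares describe that library. At 14 dpp, Eppin was seen in 74.3% of the 319 cells with a Rhox5 UMI (69.1 to 79.0) and in 62.3% of the 560 without (58.2 to 66.4). Rhox5 was seen in 39.2% of cells with a Drd4 UMI (35.1 to 43.4) and in 31.3% of those without (26.3 to 36.6). Drd4 was seen in 62.5% of cells with an Eppin UMI and in 63.8% of those without.

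**Figure D5:**
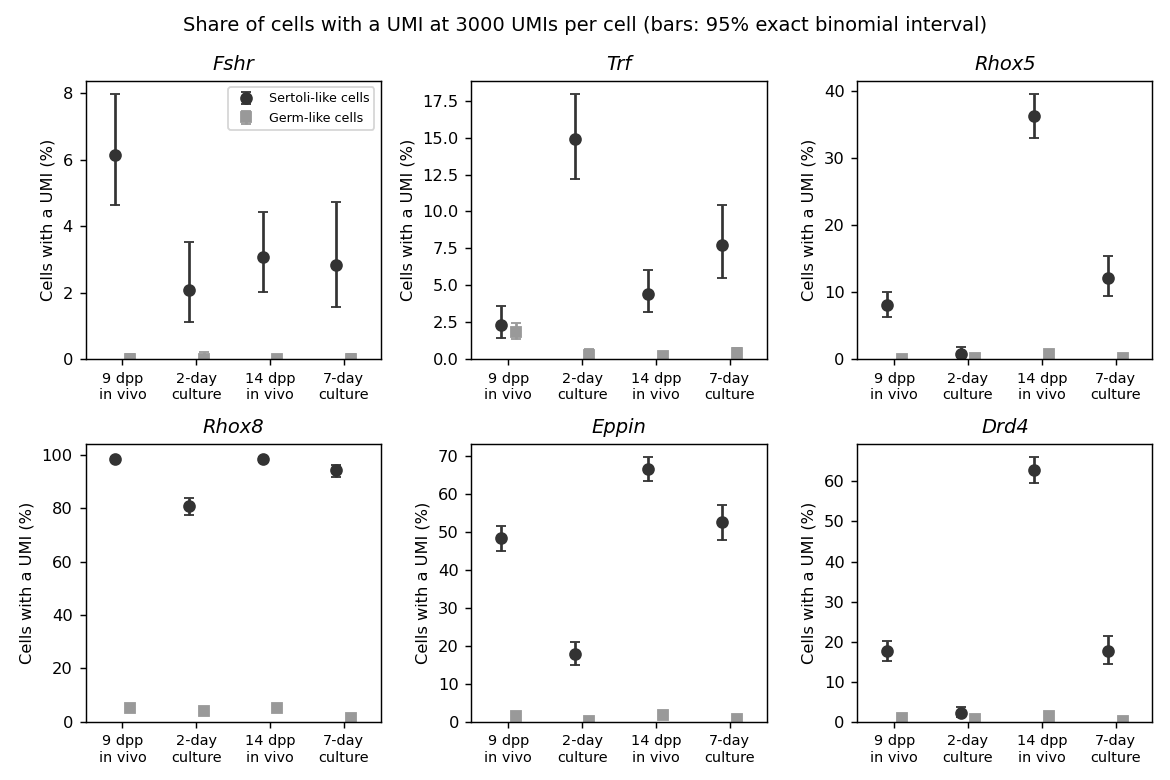
Share of cells with at least 1 UMI of each gene (y axis, percent from 0) after thinning to 3000 UMIs per cell. Sertoli-like cells (circles) and germ-like cells (squares) of the 4 libraries (x axis) are shown. Cells under 3000 UMIs were left out, among them 585 of 1209 Sertoli-like cells of the short culture. Bars are 95% exact binomial intervals. Germ-like cells lie near 0 except for Rhox8, where they reach 5.01%, and for Trf at 9 dpp the classes overlap.

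The genes whose levels over classes and libraries were most like each member were found among 14130 genes by Pearson correlation of log2(CPM + 1) over 17 points, each a class with at least 50 cells in a library. The points share libraries and classes, so the values describe these libraries only. For Fshr they were Gm48287 (0.9971), 3110035E14Rik (0.9937) and Cdh23 (0.9890), a cadherin. For Rhox8 they were Dhh (0.9886), which is Desert hedgehog and a Sertoli marker used for classing, Spint3 (0.9810) and Tmem184a (0.9705). For Eppin they were Gm14569 (0.9702), 4933402E13Rik (0.9701) and Calr4 (0.9658), a calreticulin relative. For Rhox5 they were Sept14 (0.9682), 1700018G05Rik (0.9628) and Otop2 (0.9627), a proton channel. The values were lower for Drd4, with Proca1 (0.8878), the hexokinase gene Hk2 (0.8808) and Rab30 (0.8789), and for Trf, with Trib1 (0.7840), the kinase gene Mapkapk2 (0.7802) and Ptbp3 (0.7587).

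Levels over all kept cells together also depend on the share of Sertoli-like cells, which was 17.6% in the short culture, 11.2% in the long culture, 17.2% at 9 dpp and 15.8% at 14 dpp. Fshr stood at 1.47, 1.81, 5.31 and 3.11 CPM of the whole library in that order, Rhox5 at 0.998, 9.21, 10.3 and 48.3 CPM and Eppin at 19.2, 52.5, 72.6 and 123 CPM. Rhox8 stood at 205, 230, 508 and 366 CPM. Drd4 stood at 12.9, 20.6, 35.3 and 113 CPM and Trf at 19.4, 7.71, 7.17 and 10.2 CPM. Cells that were not Sertoli-like held 90.1% of the Drd4 UMIs of the short culture and 77.0% of the Trf UMIs at 9 dpp. Thus 5 of the 6 genes were lower in each culture than in its in vivo partner also at this level, and Trf was 2.70-fold higher in the short culture (2.38 to 3.07) and 1.33-fold lower in the long culture (1.15 to 1.54).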

How the data were processed

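Libraries were made with a Chromium Single Cell 3′ v2 kit, per the labels' protocols, whose text speaks of female gonads. Reads were processed with Cell Ranger 3.0.2 on mm10, per the submitters' processing notes. The deposited matrices hold UMI counts per gene and barcode, with no normalization by the authors. The annotation and the cell calling are not given in the sources used here.

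Barcodes were kept from 500 genes up and to 20% mitochondrial UMIs. Scrublet (scanpy 1.11.5, expected rate 6%) was run per library and its calls removed (253 in the 2-day culture, 93 in the 7-day one, 143 at each age in vivo). A cell took the class with the highest share of marker UMIs, scaled to the mean of the 50 top cells of that class, if it had at least 5 UMIs from at least 2 markers and a lead of at least 2 times over the next class. The rule was chosen with the data in view. Sertoli-like cells with a lead of 2 to 3 times numbered 16 and 3 in the 2-day and 7-day cultures and 8 and 38 at 9 and 14 dpp, and cells nearest to Sertoli but left unassigned 11, 9, 7 and 46. UMIs were summed per class and library and divided by the class total (CPM). Folds are ratios of CPM with nothing added, and log2 ratios used CPM + 1. Shares of genes past 2-fold cover genes with 50 or more UMIs in the Sertoli-like cells of all libraries together. CPM have Poisson intervals, ratios conditional binomial and shares Clopper-Pearson intervals, all exact at 95%. The code was checked on simulated data. TMM factors came from edgeR 4.0.16.

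Named genes were the 6 members, list genes with at least 50 UMIs past 2-fold in a comparison, and the 3 most alike genes per member. Others named, such as Gnas, Prkaca, Shbg and Cyp17a1, were chosen after their values were seen. The members and lists were chosen with earlier results of these data known. Some list genes are not reported here. Positions come from GENCODE M21 and promoters from RefSeq.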

Additional observations from a re-analysis of the deposited data

Results flagged for a closer look

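The change over time in Sertoli-like cells had opposite signs in vivo and in culture for 3 of the 6 genes. These differences were not tested, each rests on 1 library per group, and all values are log2 ratios of CPM + 1. Fshr had -0.67 from 9 to 14 dpp and 0.53 from 2 to 7 days of culture. Trf had 1.51 in vivo and -1.71 in culture. Rhox8 had -0.37 in vivo and 0.50 in culture.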

How the results depend on the processing

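Each of the 24 ratios (6 genes in 4 comparisons) was recomputed under 13 alternatives, of which the limit to cells with at least 5000 UMIs and the Sertoli markers without Amh, Cst9, Cst12 and Defb19 were chosen after seeing the data. The direction was the same under all of them for 23 ratios. The exception was Trf in the long-culture pair, at 0.00 (-0.39 to 0.09). Of 15 ratios past 2-fold, 13 were past it under all 13 alternatives. The exceptions, with 10 in place of 1 added to CPM, which shrinks ratios of low genes by construction, were Fshr in the short-culture pair at -0.88 and Trf between the ages at 0.87. In the cells with the lower share of germ markers 3 ratios passed 2-fold that otherwise did not, Eppin in the long-culture pair at -1.02 and between the ages at 1.09, and Fshr between the cultures at 1.03. Without a UMI minimum, 4.03% of genes were past 2-fold downward in the short-culture pair, 6.47% upward in the long-culture pair and 4.98% downward from 9 to 14 dpp. Precision was lowest in the short culture for Fshr, Drd4 and Rhox5, which rest on 45, 41 and 23 UMIs there. No paired analysis was possible because each group has 1 library and the labels give no replicate numbers.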

Other observations

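Germ-like cells at 9 dpp held Trf UMIs unevenly, in splits chosen after the values were seen. At 9 dpp those with a UMI of Zbtb16, a marker of undifferentiated spermatogonia, had 12.9 CPM of Trf (193 UMIs in 901 cells, interval 11.1 to 14.8) and those without had 2.71 CPM (41 UMIs in 1590 cells, 1.94 to 3.67). Cells with a UMI of Gfra1, the GDNF receptor of stem spermatogonia, had 25.0 CPM (19.0 to 32.4) against 6.32 CPM without. Cells with a UMI of Stra8, a retinoic acid target at meiotic entry, had 4.99 CPM against 15.2 CPM without. In the short culture the values with and without Zbtb16 were 1.44 and 0.504 CPM from 3 and 5 UMIs, in the long culture 2.91 (1.55 to 4.97) and 0.437 CPM (0.176 to 0.900), and at 14 dpp 2.86 (1.96 to 4.04) and 0.401 CPM (0.184 to 0.762). The intervals of the Stra8 split overlapped in the other 3 libraries, and those of the Gfra1 split at 14 dpp and in the short culture. Cells with a UMI of a gene are also deeper on average, and the part of depth was not tested.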
